A study of Homo sapiens with 12 samples.

Results

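The comparison described here is the difference between the oxygen responses of KYSE150 and KYSE410, both established human cell lines of esophageal squamous carcinoma labelled as WT in genotype. Cells of both lines were incubated in 21% oxygen, called normoxia here, or in 0.5%, called hypoxia, and the design text gives 48 hours for both, whereas the sample labels give a time of 0 for the normoxia libraries. Poly(A) RNA was sequenced in 3 libraries for each of the 4 groups, 12 in all, and values are FPKM (fragments scaled by transcript length and by library size). Of 26115 gene symbols present in the tables of both lines, the 12653 with a mean of at least 1 FPKM over the 12 libraries were compared. The response of a gene in a line is its mean log2(FPKM + 1) in hypoxia minus that in normoxia, and the difference in response is the KYSE410 response minus the KYSE150 response. A positive difference therefore means a larger rise or a smaller fall in KYSE410. All fold changes below are on this log2(FPKM + 1) scale, which understates changes of low genes. Where ± SE follows a value, it comes from a model of all 12 libraries, with 3 in each group. The model holds 1 variance for each gene, so the SE of a gene is the same in both lines. It is thus not the scatter of either line alone, and the same holds for the bars and intervals below. A gene was called at an adjusted p below 0.05 by limma, with Benjamini-Hochberg adjustment over the 12653 genes.

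In cells short of oxygen, prolyl hydroxylases stop marking the alpha subunits of the hypoxia-inducible factors (HIF) for destruction, and HIF raises genes of glycolysis, pH control and vessel growth in most cell types. Other oxygen-linked systems act beside it. Sterol synthesis and histone demethylation use molecular oxygen as a substrate, disulfide formation in the endoplasmic reticulum (ER) consumes it, and amino acid limitation or misfolded protein signals through the integrated stress response. Cell lines can also differ in proliferation and squamous differentiation before oxygen is lowered. Whether such differences bear on the responses here was not tested.

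Nothing in the labels says that the 3 libraries of a group came from separate cultures, and the p-values below rest on the scatter among these libraries alone, which may be technical. Sequencing depth is unknown, because the low FPKM values did not fall on steps of whole reads. The library numbers in the labels run from 50 to 55 for KYSE150 and from 56 to 58 for KYSE410 hypoxia, but from 38 to 40 for KYSE410 normoxia. In KYSE410, oxygen and this numbering therefore cannot be told apart, and neither can their parts in any difference between the responses. KYSE150 normoxia replicate 2 stood apart from its group: the SD of its log2 differences from the other 2 libraries was 0.335 and 0.365, against 0.152 to 0.195 for every other pair of one group. The epithelial genes KRT5, KRT14, TP63, DSG3 and CDH1 were at mean levels of at most 0.372 FPKM in KYSE150 in either oxygen level and of at least 13.1 in KYSE410. Other squamous genes differed from this: KRT17, SFN and PERP were at 35.1 FPKM or more in all 4 groups, and SOX2 was at most 0.0627. TRIM29 was higher in KYSE150, at 58.3 FPKM in normoxia and 176 in hypoxia, than in KYSE410, at 19.5 and 60.3. Markers of leukocytes and endothelium were near 0 in both lines, except for CD68, which cancer cells also express. COL1A1 and PDGFRB, genes typical of fibroblasts, were at 5.89 and 1.62 FPKM in KYSE150 normoxia and at 0.893 and 0.0433 in KYSE410 normoxia.

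The 2 responses differed at most genes. The difference was called at 8013 of the 12653 genes, 63.3%, with 3453 positive (27.3%) and 4560 negative (36.0%). Response was called at 68.5% of genes in KYSE150 (26.1% rose, 42.4% fell) and at 74.5% in KYSE410 (27.4% rose, 47.1% fell). A called difference is thus the common state here, and a gene list has to be read against these shares. Among the 8013 genes, 711 (5.62%) rose in KYSE150 and fell in KYSE410, and 604 (4.77%) fell in KYSE150 and rose in KYSE410. By the test, 698 genes (5.52%) rose and 837 (6.62%) fell in KYSE150 alone, and 944 (7.46%) rose and 1288 (10.2%) fell in KYSE410 alone. A further 889 (7.03%) rose in both lines and 1972 (15.6%) fell in both. A positive difference of at least 1 was called at 700 genes (5.53%) and a negative one of that size at 1017 (8.04%). Among these genes with a called difference and the same direction, the larger change was more often in KYSE410, at 573 of the 889 that rose and 1507 of the 1972 that fell. Under all 3 other scalings described below, 454 and 916 of them kept their class. The median KYSE410 response of all genes was -0.17 as deposited, 0.01 with median-of-ratios scaling and -0.36 with common-sum scaling. Which line had the larger change was not recounted under these. The remaining 70 genes passed for the difference but in neither line.

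The split between positive and negative calls depended on scaling. With the authors' FPKM the median difference over all genes was -0.09, with median-of-ratios scaling it was 0.00 and the calls were 3990 positive and 3941 negative, and with every library set to one sum it was -0.29 with 2356 positive and 6011 negative. Each class was therefore also counted under median-of-ratios, common-sum and quantile scaling. Of the 711 genes that rose in KYSE150 and fell in KYSE410, 352 kept that class in all 3, as did 219 of the 604 genes of the reverse class. Positions of genes are from GENCODE 29 on GRCh38, matched by symbol. All genes chosen by rank below kept their class, and the rank rules also asked for a mean of at least 5 FPKM. They asked too for normoxia and hypoxia libraries that did not overlap in each line with a call. A lack of overlap at a ranked gene thus follows from the rule and is not a result. Of all 12653 genes, 7203 (56.9%) had no such overlap in either line.

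**Figure D1:**
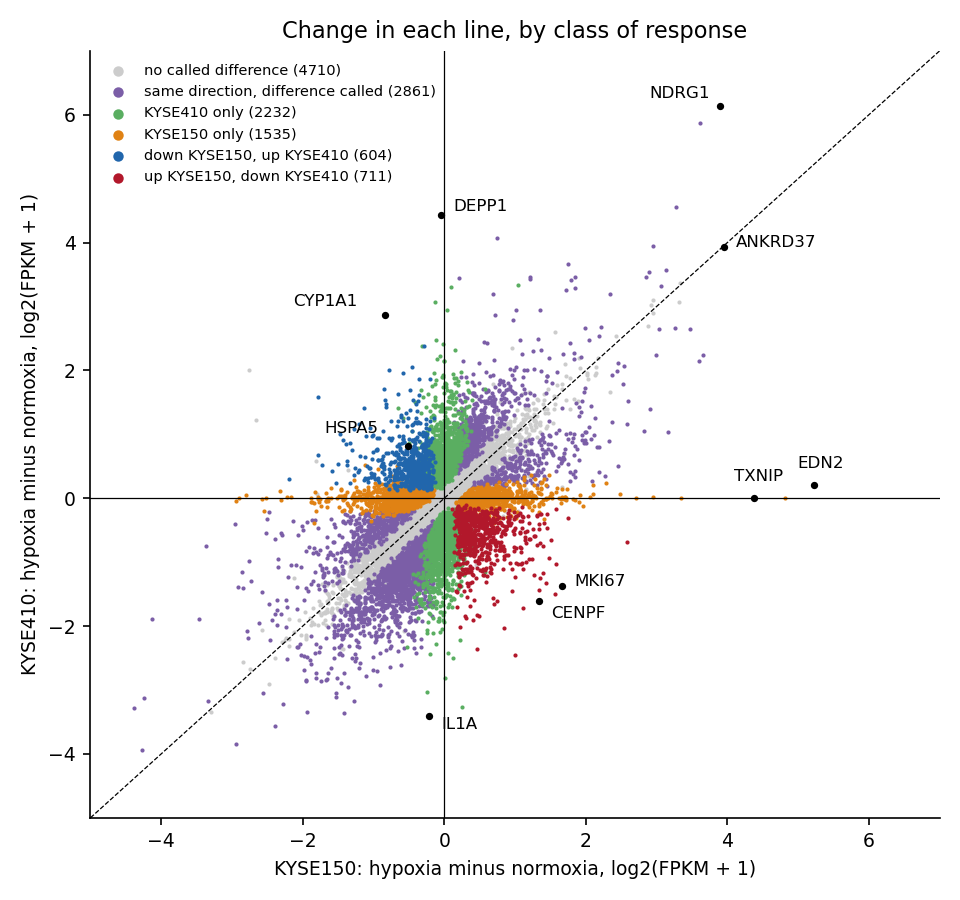
Response of each of the 12653 genes in KYSE150 (x axis) and KYSE410 (y axis), hypoxia minus normoxia in log2(FPKM + 1), with points coloured by class and the dashed line marking equal responses. The 711 genes in red rose in KYSE150 and fell in KYSE410, the 604 in blue did the reverse, and EDN2, TXNIP and DEPP1 lie far out along 1 axis and near 0 on the other.

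Transcript length moved with the response in KYSE410. Transcripts of at most 1000 nt had a median KYSE410 change of 0.42 (897 genes) and those over 6000 nt one of -0.43 (2168 genes), whereas the same bins in KYSE150 had medians of -0.04 and -0.05. The class that rose in KYSE150 and fell in KYSE410 had a median transcript length of 4534 nt, and the reverse class had one of 2408 nt. A trend of the response on length and GC content was fitted within each line and taken from its hypoxia libraries, with normoxia libraries left unchanged. After this removal, 484 of 699 and 378 of 584 genes with these measures kept their class. Values after this removal are given below where they change the class of a gene chosen by rank, and for only some of the lists that they change.

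Genes of cell division gave the clearest opposite responses. Of 36 kinetochore and spindle genes, 35 rose in KYSE150, whereas 26 fell and 5 rose in KYSE410. The difference was negative at 32 of the 36 and positive at none, against 36.0% and 27.3% of all genes, with a median of -1.58 against -0.09 over all genes. The list was in opposite classes at 26 members, all rising in KYSE150 and falling in KYSE410, a class that holds 5.62% of all genes. Among 20 mitotic kinases, cyclins and their partners, 17 rose in KYSE150, 9 fell and 6 rose in KYSE410, and 16 differences were negative. Among 19 genes of condensin, cohesin and mitotic chromatin, 14 differences were negative and none positive. Together these 3 lists hold 75 genes, of which 67 rose in KYSE150 and 42 fell in KYSE410, and 39 were in the opposite class. All 39 stayed there without KYSE150 normoxia replicate 2, 36 stayed with the length and GC trend removed, and 25 stayed under all 3 scalings. The summed level of the 75 genes was 0.549%, 0.458% and 0.566% of all FPKM in KYSE150 normoxia and 0.983%, 1.03% and 1.04% in hypoxia, and in KYSE410 it was 0.532%, 0.540% and 0.544% in normoxia and 0.391%, 0.380% and 0.364% in hypoxia. In bulk RNA, a change in the share of cells in mitosis and a change in RNA per cell cannot be told apart.

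Promoters of many of these genes carry a cell cycle homology region, a short element bound by complexes that repress late cell cycle genes outside G2 and mitosis. Its letters were searched as TTTGAA or TTCGAA on both strands from 250 bases before to 50 after the transcription start, in RefSeq promoters of build GRCh38.p14, which matched 9402 of the genes tested. A match was present in 16.6% of all 27305 promoters, in 10.8% of those of the genes tested, in 25 of 31 kinetochore and spindle promoters (80.6%) and in 96 of 550 promoters of the class that rose in KYSE150 and fell in KYSE410 (17.5%). Without the 3 cell division lists, that class had a match at 71 of 519 promoters (13.7%). Within the 3 lists, 25 of the 31 promoters of opposite genes had a match (80.6%), and 16 of the 32 promoters of the other members (50%). The CCAAT box (CCAAT on either strand), which often stands beside this element, was in 25 of the 31 kinetochore and spindle promoters (80.6%). It was in 35.7% of all promoters and in 37.3% of those of the genes tested. Promoters of the ER chaperone and cholesterol lists below had it at 82.6% and 83.3%. Those of lysine methyltransferases and chromatin remodellers had it at 20.7%. Such a match is a string of letters and was not tested as a binding site. The 5 promoters below with a match, chosen after the matches were seen, show where the element lies. Each is the 150 bases before the transcription start, 5′ to 3′ on the gene's strand, with the element or its reverse complement in capitals. They are MKI67 (chr10:128126424-128126573, minus strand), ASPM (chr1:197146670-197146819, minus), HMMR (chr5:163460482-163460631, plus), PLK1 (chr16:23678739-23678888, plus) and KIF23 (chr15:69414199-69414348, plus).
MKI67: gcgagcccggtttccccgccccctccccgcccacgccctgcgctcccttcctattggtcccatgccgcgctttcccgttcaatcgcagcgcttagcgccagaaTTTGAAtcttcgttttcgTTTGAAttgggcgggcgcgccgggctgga
ASPM: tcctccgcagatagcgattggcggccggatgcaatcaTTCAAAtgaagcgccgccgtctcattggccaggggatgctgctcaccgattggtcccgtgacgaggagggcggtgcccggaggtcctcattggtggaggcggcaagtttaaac
HMMR: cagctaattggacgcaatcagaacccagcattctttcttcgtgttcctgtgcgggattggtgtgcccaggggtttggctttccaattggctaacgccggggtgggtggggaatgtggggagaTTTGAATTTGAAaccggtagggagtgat
PLK1: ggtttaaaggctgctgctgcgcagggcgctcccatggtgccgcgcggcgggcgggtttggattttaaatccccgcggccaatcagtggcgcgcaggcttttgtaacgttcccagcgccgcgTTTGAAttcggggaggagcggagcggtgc
KIF23: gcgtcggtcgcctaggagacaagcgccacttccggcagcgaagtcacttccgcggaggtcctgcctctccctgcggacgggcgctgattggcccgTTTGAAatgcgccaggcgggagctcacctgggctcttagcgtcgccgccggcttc

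MKI67 (chr10:128096659-128126385) encodes the Ki-67 protein that coats mitotic chromosomes, and was at 18.6, 7.50 and 19.6 FPKM in KYSE150 normoxia, 47.1, 45.2 and 48.1 in KYSE150 hypoxia, 27.8, 29.1 and 28.5 in KYSE410 normoxia and 11.3, 10.6 and 9.42 in KYSE410 hypoxia. Every KYSE150 hypoxia library lay above every KYSE150 normoxia library, and in KYSE410 the order was reversed, as the rank rule asked. Its responses were 1.67 ± 0.25 in KYSE150 and -1.37 ± 0.25 in KYSE410, and the difference was -3.04 ± 0.35 (adjusted p = 1.58e-05). The normoxia replicate of KYSE150 that stood apart was the lowest of its group here, and without it the difference was -2.62. CENPF, a kinetochore and nuclear matrix protein of late G2, was at 22.5, 12.4 and 23.7 FPKM in KYSE150 normoxia, 47.7, 46.2 and 53 in KYSE150 hypoxia, 83.3, 85.5 and 85.7 in KYSE410 normoxia and 27.3, 28.1 and 25.8 in KYSE410 hypoxia. Its level in KYSE410 normoxia was the highest of the 4 groups, and hypoxia brought it below the KYSE150 hypoxia libraries. The difference in response was -2.95 ± 0.25 (adjusted p = 1.32e-06). ASPM, which focuses spindle poles, responded by 1.4 ± 0.19 in KYSE150 and -1.17 ± 0.19 in KYSE410, the plus-end motor CENPE by 0.96 and -1.45 and the kinesin KIF14 by 1.00 and -1.23. HMMR, a spindle assembly factor, responded by 1.51 and -0.66 and KIF23, a kinesin of the central spindle, by 0.36 and -1.44, each called in both lines.

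The kinases and cyclins of mitotic entry rose in KYSE150, with a median of 0.92, and were divided in KYSE410. Their KYSE410 median was -0.12, and 0.14, -0.35 and 0.09 under median-of-ratios, common-sum and quantile scaling, so its sign depends on the scaling, as it does for the condensin and cohesin list (-0.05, and 0.18, -0.26 and 0.08). Of the 8 kinases and cyclins in the opposite class, 5 stayed there under all 3 scalings. CCNB1, the cyclin that drives entry into mitosis, was at 48.6, 58.2 and 49.4 FPKM in KYSE150 normoxia, 124, 114 and 123 in KYSE150 hypoxia, 88.6, 90.1 and 90.6 in KYSE410 normoxia and 48.1, 45.9 and 43.7 in KYSE410 hypoxia. Groups did not overlap within either line, as the rank rule asked, and the difference was -2.15 ± 0.10 (adjusted p = 1.47e-08). AURKA, the centrosomal kinase, responded by 1.39 ± 0.05 in KYSE150 and -0.74 ± 0.05 in KYSE410. PLK1, the polo kinase of mitosis, responded by 1.28 ± 0.06 in KYSE150 and -0.60 ± 0.06 in KYSE410, and the checkpoint kinase BUB1 by 1.34 ± 0.07 in KYSE150 and -0.48 ± 0.07 in KYSE410. SMC4, a condensin core subunit, responded by 0.66 and -0.66, whereas NCAPH, a condensin subunit, rose by 1.23 in KYSE150 with a KYSE410 value of -0.05 that did not pass. WAPL, which releases cohesin from chromatin, fell in both lines, with responses of -0.90 and -1.62. The kinesin KIF20A rose in both lines but far more in KYSE150, from 13.3, 11.6 and 12.8 to 74.7, 71.2 and 74.8 FPKM there and from 14.5, 15.8 and 14.6 to 23.2, 21.5 and 20.4 in KYSE410.

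**Figure D2:**
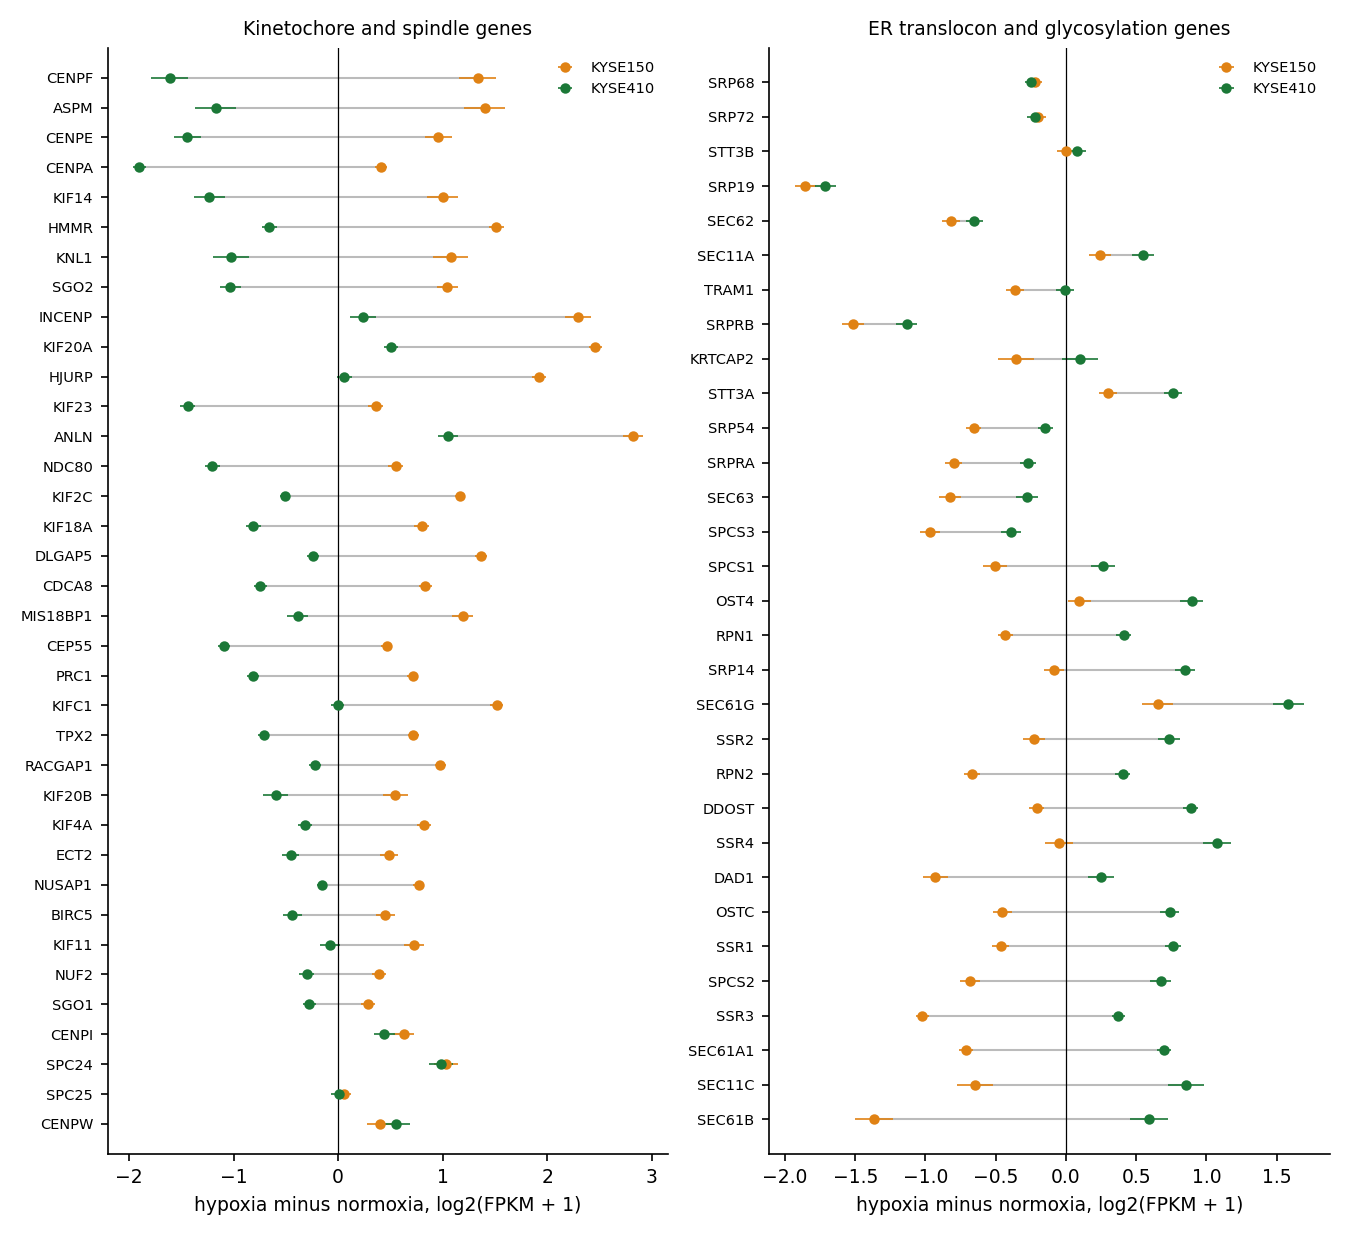
Response of every tested member of 2 lists, hypoxia minus normoxia in log2(FPKM + 1), with KYSE150 in orange and KYSE410 in green. A grey line joins the 2 values of a gene. Bars show ± SE, from a variance that both lines share at a gene. Of the 36 kinetochore and spindle genes, 26 lie right of 0 in KYSE150 and left of 0 in KYSE410 by the test, and 13 of the 31 ER translocon and glycosylation genes lie the other way round.

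The remaining leading genes that rose in KYSE150 and fell in KYSE410 were of mixed function, and several have no part in cell division. GAB2 (chr11:78215297-78418348), a docking protein below growth factor receptors, was at 3.22, 2.28 and 3.56 FPKM in KYSE150 normoxia, 11.4, 10.4 and 10.6 in KYSE150 hypoxia, 8.11, 9.04 and 8.16 in KYSE410 normoxia and 2.33, 2.25 and 2.47 in KYSE410 hypoxia. The 2 lines thus exchanged order, and the difference was -3.06 ± 0.15 (adjusted p = 1.85e-08). PPP2R5B, a regulatory subunit of protein phosphatase 2A, responded by 1.34 ± 0.07 in KYSE150 and -1.44 ± 0.07 in KYSE410, and the taurine transporter SLC6A6 by 1.35 ± 0.12 in KYSE150 and -1.24 ± 0.12 in KYSE410. The nuclear import receptor KPNA2 responded by 1.27 ± 0.07 in KYSE150 and -1.20 ± 0.07 in KYSE410. CKAP2L, a spindle protein, and CDCA2, a phosphatase anchor on mitotic chromatin, responded by 1.11 and -1.71 and by 1.57 and -1.03. KLF10, an early factor induced by TGF-beta, responded by 1.11 ± 0.11 in KYSE150 and -1.11 ± 0.11 in KYSE410. Over the whole class, 16 of the 711 genes moved by at least 1 in each line.

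Genes of protein folding and entry into the secretory pathway moved the opposite way. Of all genes, 42.4% fell and 26.1% rose in KYSE150, and 27.4% rose and 47.1% fell in KYSE410. Among 26 ER chaperones and folding enzymes, 17 fell and 4 rose in KYSE150, while 16 rose and 6 fell in KYSE410. The difference was positive at 20 members and negative at 2, beside 27.3% and 36.0% of all genes, with a median of 0.94. Among 31 genes of the ER translocon, glycosylation and signal peptidase, 24 fell and 3 rose in KYSE150, 19 rose and 9 fell in KYSE410, and 26 differences were positive with none negative, at a median of 0.80. The class that fell in KYSE150 and rose in KYSE410 holds 4.77% of all genes and 22 of these 57. All 22 stayed in it without KYSE150 normoxia replicate 2, 17 with the length and GC trend removed and 14 under all 3 scalings. The 57 genes together took 1.33%, 1.35% and 1.35% of all FPKM in KYSE150 normoxia and 1.07%, 1.11% and 1.09% in hypoxia. In KYSE410 they took 0.914%, 0.900% and 0.899% in normoxia and 1.27%, 1.30% and 1.28% in hypoxia, so that in hypoxia the KYSE410 share lay above that of KYSE150 and in normoxia below it.

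Many ER chaperone promoters carry an ER stress element, which is bound by NF-Y together with ATF6. It is 19 letters long, with CCAAT at one end, CCACG at the other and any letters between them, and so it includes a CCAAT box. It was found on either strand in 22 of all 27305 promoters (0.0806%) and in 6 of 23 promoters of the chaperone list (26.1%), those of HSPA5, HSP90B1, CALR, CANX, CRELD2 and ERO1B. The 6 genes did not respond as 1 group. HSPA5, CANX and CRELD2 were in the opposite class, HSP90B1 and CALR rose in both lines with differences of 1.05 and 1.22, and ERO1B had no called difference (-0.17). Those of CRELD2 (chr22:49918484-49918633, plus strand) and HSPA5 (chr9:125241344-125241493, minus) are shown as the 150 bases before the start with the element in capitals, because both genes were in the opposite class and had a match there.
CRELD2: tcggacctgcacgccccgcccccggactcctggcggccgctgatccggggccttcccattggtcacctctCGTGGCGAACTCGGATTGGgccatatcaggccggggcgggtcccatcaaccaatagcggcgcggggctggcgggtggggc
HSPA5: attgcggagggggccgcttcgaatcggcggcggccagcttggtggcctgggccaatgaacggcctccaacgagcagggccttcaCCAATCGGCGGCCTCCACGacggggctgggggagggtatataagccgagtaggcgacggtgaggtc

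HSPA5 (chr9:125234853-125241330), the Hsp70 chaperone of the ER lumen, was at 493, 559 and 510.5 FPKM in KYSE150 normoxia, 355, 385 and 349 in KYSE150 hypoxia, 202, 185 and 182 in KYSE410 normoxia and 327, 329.9 and 347 in KYSE410 hypoxia. Hypoxia brought the 2 lines close together from levels that were far apart in normoxia, and the difference was 1.34 ± 0.09 (adjusted p = 3.65e-07). PPIB, the ER cyclophilin that acts on collagen folding, was at 289.8, 391 and 290.0 FPKM in KYSE150 normoxia, 169.7, 168 and 168 in KYSE150 hypoxia, 209, 208 and 205 in KYSE410 normoxia and 393, 406 and 397 in KYSE410 hypoxia. No group overlapped another within a line, as the rank rule asked, and the difference was 1.86 ± 0.13 (adjusted p = 4.01e-07). CRELD2, an ER stress-induced disulfide isomerase, responded by -0.83 ± 0.13 in KYSE150 and 1.47 ± 0.13 in KYSE410. MANF, a secreted ER stress factor, fell from 95.8, 120.3 and 92.8 to 35.8, 33.0 and 31.5 FPKM in KYSE150 and rose from 27.3, 28.5 and 24.5 to 36.5, 36.7 and 35.3 in KYSE410. Once the trend with length and GC was removed, the KYSE410 rise of MANF was 0.21 and did not pass (adjusted p = 0.0513).

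Of the translocon, SEC61A1, its pore subunit, responded by -0.71 ± 0.05 in KYSE150 and 0.70 ± 0.05 in KYSE410, and SEC61B, its small beta subunit, by -1.37 ± 0.14 in KYSE150 and 0.59 ± 0.14 in KYSE410. SEC61B has a transcript of 687 nt, and with the length and GC trend removed its KYSE410 value was 0.10 (adjusted p = 0.506). SEC11C, a signal peptidase subunit, responded by -0.65 and 0.85 and SSR3, of the translocon-associated complex, by -1.02 and 0.37. Factors of ER-associated degradation and the stress sensors did not move as 1 group: 7 of 19 differences were positive and 6 negative, and the sign of their median of -0.03 changed under median-of-ratios scaling (0.07), under quantile scaling (0.15) and with the trend removed (0.16). ERLEC1, an ER lectin, responded by -0.62 ± 0.06 in KYSE150 and 0.40 ± 0.06 in KYSE410. XBP1, a transcription factor of the unfolded protein response, fell in both lines and further in KYSE410, with responses of -0.74 and -1.69, and the lectin OS9 rose in both, by 0.32 and 0.89.

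Outside the ER lists, the leading genes that fell in KYSE150 and rose in KYSE410 included CYP1A1, the xenobiotic monooxygenase that the aryl hydrocarbon receptor (AhR) induces. CYP1A1 (chr15:74719542-74725610) was at 2.32, 2.45 and 2.63 FPKM in KYSE150 normoxia, 1.17, 0.865 and 0.797 in KYSE150 hypoxia, 10.5, 13.3 and 10.6 in KYSE410 normoxia and 88.3, 84.7 and 96.8 in KYSE410 hypoxia. The KYSE410 hypoxia libraries stood far above all others, and the difference was 3.71 ± 0.14 (adjusted p = 4.38e-09). The core letters that the AhR dimer binds, GCGTG on either strand, are in 36.3% of all promoters of this length and in 52% of those of the genes tested. The CYP1A1 promoter (chr15:74725529-74725678, minus strand, capitals on the core) is shown because this gene had the largest difference in the class among the ranked genes.
CYP1A1: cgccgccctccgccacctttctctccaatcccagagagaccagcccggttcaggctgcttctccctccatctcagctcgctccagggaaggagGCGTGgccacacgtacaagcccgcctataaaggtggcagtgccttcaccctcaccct

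Other AhR pathway genes did not follow it: of 8 tested, 3 differences were positive and 3 negative, and TIPARP, also an AhR target, rose more in KYSE150, by 1.37 against 0.84. HSPB8, a small heat shock protein, was at 11.5, 11.5 and 10.7 FPKM in KYSE150 normoxia, 6.01, 6.07 and 5.34 in KYSE150 hypoxia, 4.17, 5.26 and 4.40 in KYSE410 normoxia and 16.8, 16.8 and 18.6 in KYSE410 hypoxia, which placed KYSE150 above KYSE410 in normoxia and below it in hypoxia. LCN2, a siderophore-binding secreted protein, responded by -0.82 ± 0.12 in KYSE150 and 1.42 ± 0.12 in KYSE410, and the protease inhibitor CSTA of the epidermal envelope by -0.75 ± 0.11 in KYSE150 and 0.91 ± 0.11 in KYSE410. IFI27L2 responded by -0.95 and 0.94, OCIAD2 by -0.78 and 0.95, UGDH, which makes UDP-glucuronate, by -0.95 and 0.77, and the divergent transcript MAP3K2-DT by -1.39 and 0.84. Of the 604 genes in this class, 6 moved by at least 1 in each line: CHML, SNORA103, SNORD15A, SNORD77, SNRPN and SNURF. None of these 6 entered the ranking, because they are small RNAs or overlap another gene on their strand, so that reads could be shared.

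Most HIF targets rose in both lines, and the differences among them ran both ways. Of 42 tested, 38 rose in KYSE150 and 32 in KYSE410, with median responses of 2.11 and 1.70. The difference was negative at 18 and positive at 12, beside 36.0% and 27.3% of all genes. These counts include 6 members that stayed under 1 FPKM on average in both KYSE410 groups and 1, DEPP1, that did so in KYSE150, and among the other 35 the counts were 12 negative and 11 positive with a median difference of 0.02. EDN2 (chr1:41478775-41484673), which encodes the vasoconstrictor endothelin 2, was at 0.394, 0.605 and 0.165 FPKM in KYSE150 normoxia, 44.7, 58.4 and 48.9 in KYSE150 hypoxia, 0, 0 and 0 in KYSE410 normoxia and 0.372, 0.102 and 0.0311 in KYSE410 hypoxia. It rose in KYSE150 alone, where hypoxia libraries exceeded normoxia libraries many times over, and the difference was -5.01 ± 0.19. In KYSE410 it was at or near 0 at both oxygen levels, so the filter on mean level was passed through KYSE150 hypoxia and the difference is no measure of a smaller KYSE410 response. DEPP1 (chr10:44970981-44978810), a FOXO-induced regulator of autophagy, was at 0.312, 0.178 and 0.309 FPKM in KYSE150 normoxia, 0.206, 0.130 and 0.328 in KYSE150 hypoxia, 0.445, 0.385 and 0.320 in KYSE410 normoxia and 29.8, 26.7 and 29.5 in KYSE410 hypoxia. This is the reverse picture, with a rise in KYSE410 alone from levels under 1 FPKM in the other 3 groups. NDRG1, a stress-induced gene and common hypoxia marker, rose in both, from 77.6, 66.1 and 69.6 to 1096, 1072 and 1050.0 FPKM in KYSE150 and from 13.8, 17.9 and 16.5 to 1225, 1124 and 1232 in KYSE410. The 2 lines reached similar levels from different starting levels, and the difference was 2.24 ± 0.12. HILPDA, which coats lipid droplets, responded by 3.62 ± 0.06 in KYSE150 and 5.86 ± 0.06 in KYSE410.

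Other HIF targets were nearly silent in KYSE410. The liprin PPFIA4, the lipase inhibitor ANGPTL4, the collagen cross-linking enzyme LOX, the hydroxylase EGLN3 and the carbonic anhydrase CA12 rose in KYSE150 by 2.94, 2.71, 1.90, 1.43 and 1.04. None of these 5 exceeded 0.124 FPKM in any KYSE410 library, and none had a called KYSE410 response. Core targets without a called difference were ANKRD37, an ankyrin repeat gene, with responses of 3.94 ± 0.11 in KYSE150 and 3.93 ± 0.11 in KYSE410, the mitophagy receptor BNIP3 with 2.92 and 3.02, and the glycolytic kinase PGK1 with 2.18 and 2.2. CA9, the carbonic anhydrase of tumour pH control, rose by 2.85 and 3.46 and LDHA, the lactate dehydrogenase, by 1.99 and 2.66. Their differences of 0.61 and 0.67 passed, that of LDHA not under quantile scaling. STC2, a secreted glycoprotein, fell in both lines, with responses of -1.37 and -2.96. VEGFA, the vessel growth factor, had small responses of 0.14 ± 0.06 in KYSE150 and -0.25 ± 0.06 in KYSE410, whose class did not hold under all 3 scalings. The core that HIF binds, ACGTG on either strand, was in 22 of 37 promoters of this list (59.5%). It was in 21.6% of all promoters and in 27.4% of those of the genes tested. Among the lists it ranged from 0% for squamous genes to 68.8% for ER-associated degradation and stress sensors. The ER translocon list had it at 57.7%, so a high share is not particular to HIF targets.

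**Figure D3:**
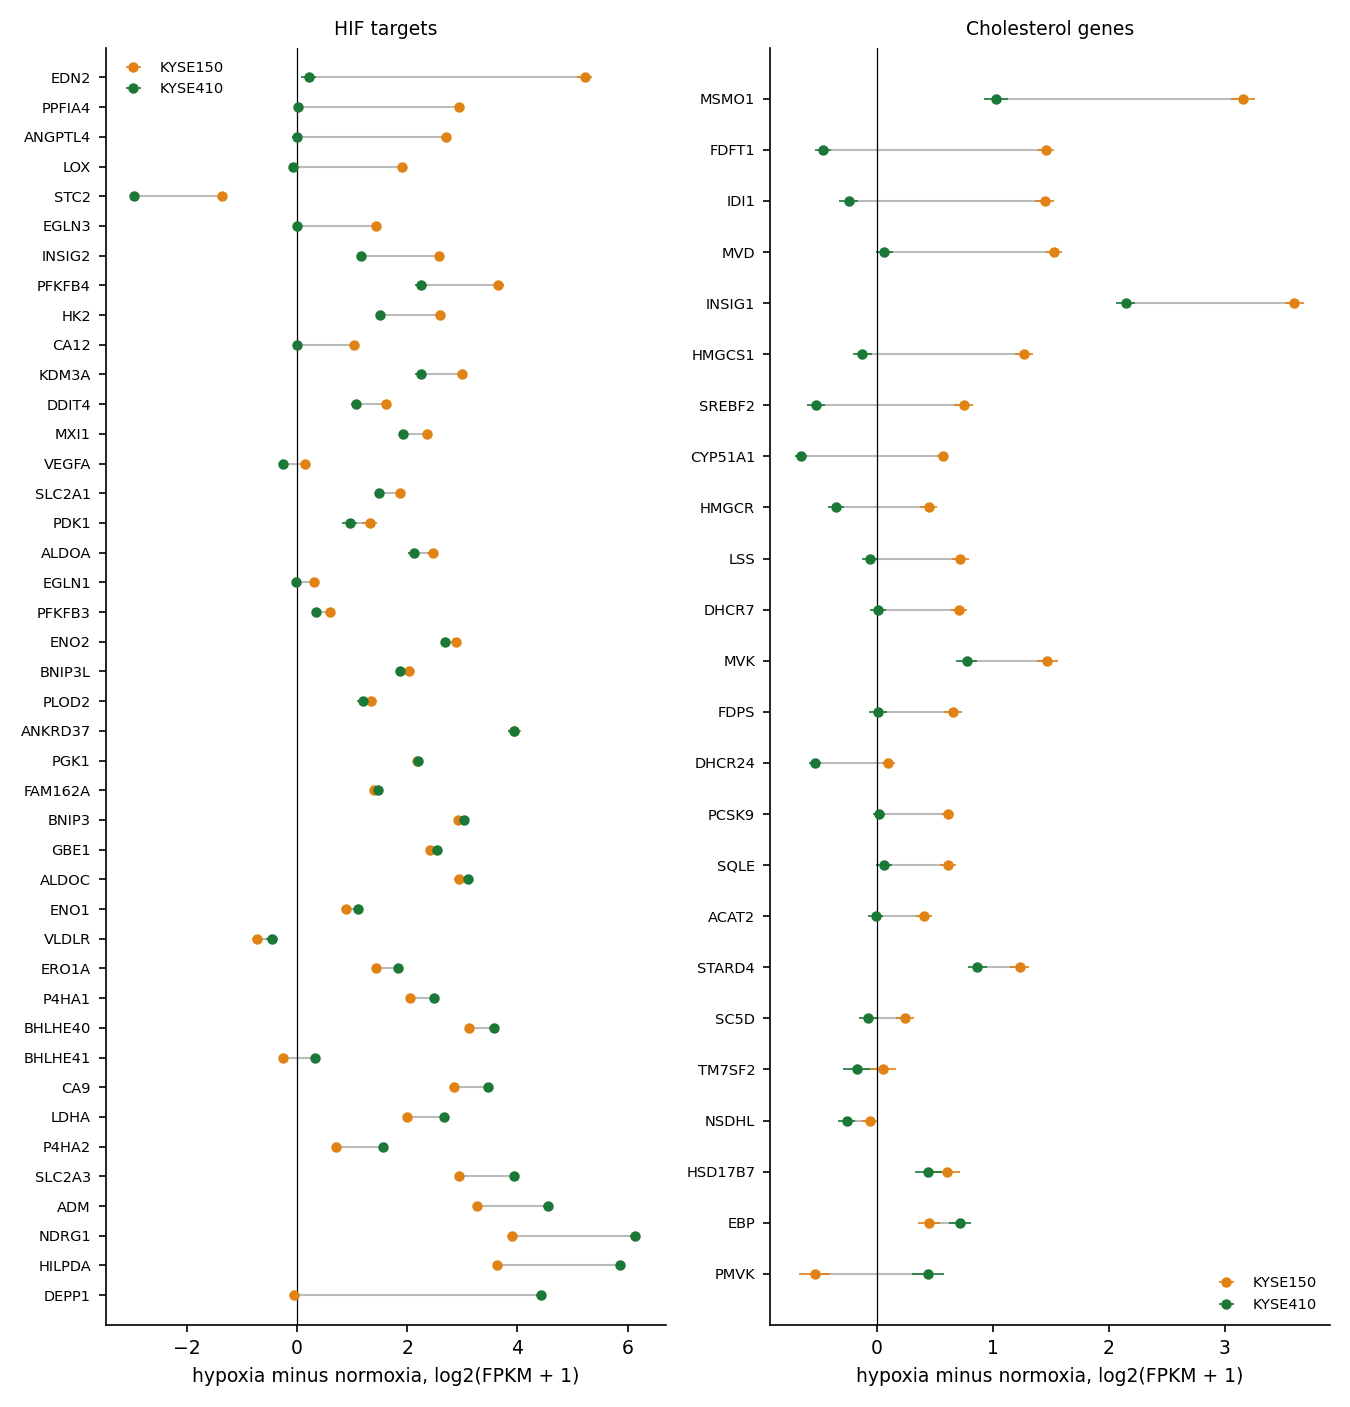
Response of the 42 tested HIF targets and of 24 of the 25 cholesterol genes, hypoxia minus normoxia in log2(FPKM + 1). KYSE150 is in orange and KYSE410 in green. Bars show ± SE, from a variance that both lines share at a gene. Most HIF targets lie right of 0, 38 of the 42 having risen in KYSE150 and 32 in KYSE410 by the test, whereas most cholesterol genes lie right of 0 in KYSE150 and near or left of 0 in KYSE410.

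Cholesterol synthesis genes rose mainly in KYSE150. Of 25 tested, 21 rose and 1 fell in KYSE150, beside 26.1% and 42.4% of all genes. In KYSE410, 7 rose and 8 fell, beside 27.4% and 47.1% of all genes. The difference was negative at 20 and positive at 1, with a median of -0.70, and 9 members rose in KYSE150 alone while 6 rose there and fell in KYSE410. The KYSE410 median of the list was -0.01, and 0.11, -0.23 and 0.12 under median-of-ratios, common-sum and quantile scaling, so its sign there depends on the scaling. The list summed to 0.145%, 0.143% and 0.148% of FPKM in KYSE150 normoxia and 0.285%, 0.309% and 0.276% in hypoxia. In KYSE410 it summed to 0.111%, 0.104% and 0.108% in normoxia and 0.0962%, 0.0957% and 0.0927% in hypoxia. The share of the KYSE410 library total was thus lower in hypoxia, but the summed FPKM was higher, at 387.8, 369.4 and 383.6 in normoxia and 400.9, 397.7 and 393.5 in hypoxia, so the direction depends on the scale. FDFT1, squalene synthase, was at 36.6, 43.2 and 37.1 FPKM in KYSE150 normoxia, 108, 114 and 103 in KYSE150 hypoxia, 33.9, 35.1 and 34.6 in KYSE410 normoxia and 24.1, 26.0 and 24.1 in KYSE410 hypoxia. The KYSE150 hypoxia libraries stood far above all others, and the KYSE410 hypoxia libraries were the lowest. Its responses were 1.46 ± 0.07 in KYSE150 and -0.47 ± 0.07 in KYSE410, and the difference was -1.92 ± 0.09 (adjusted p = 2.27e-08). MSMO1, an oxygen-using sterol demethylase, rose in both lines, by 3.16 and 1.03, as did INSIG1, the ER anchor that retains SREBP, by 3.6 and 2.14. SREBF2, the transcription factor of the pathway, responded by 0.75 ± 0.08 in KYSE150 and -0.53 ± 0.08 in KYSE410.

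Genes of histone and DNA demethylation by oxygen-using dioxygenases had negative differences nearly throughout. Of 20 JmjC and TET genes, 19 differences were negative and none positive, beside 36.0% and 27.3% of all genes, with a median of -0.82. With the length and GC trend removed, 16 were negative and none positive, with a median of -0.63. In KYSE150, 12 rose and 5 fell, beside 26.1% and 42.4% of all genes. In KYSE410, 2 rose and 15 fell, beside 27.4% and 47.1%. KDM4B, a lysine 9 demethylase and HIF target, rose in both lines, from 3.68, 3.09 and 3.75 to 17.7, 15.9 and 16.4 FPKM in KYSE150 and from 2.86, 3.20 and 2.55 to 6.09, 5.77 and 6.23 in KYSE410, with a difference of -1.11 ± 0.11. Its relative KDM4A fell in both, with responses of -0.79 and -2.13, as did the ribosomal oxygenase RIOX2, with -0.93 and -1.83. KDM6A, a lysine 27 demethylase, fell in KYSE410, with a response of -1.47, and its KYSE150 value of -0.28 did not pass, but without KYSE150 normoxia replicate 2 it was -0.54 and passed (adjusted p = 3.07e-05).

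Lysine methyltransferases and chromatin remodellers fell in KYSE410. Of 36, 27 fell and 2 rose there, beside 47.1% and 27.4% of all genes. In KYSE150, 11 rose and 11 fell, beside 26.1% and 42.4% of all genes. Differences were negative at 25 and positive at none, beside 36.0% and 27.3% of all genes. With the length and GC trend removed, 14 were negative and 2 positive, and the median difference went from -0.73 to -0.34. The list holds long transcripts, such as that of NSD1 at 12892 nt. NSD1, a lysine 36 methyltransferase, responded by -0.40 ± 0.19 in KYSE150 and -1.70 ± 0.19 in KYSE410, and the KYSE150 fall passed without KYSE150 normoxia replicate 2 (-0.71, adjusted p = 2.73e-06) and with the trend removed (-0.52, adjusted p = 0.0291). SETD2, which places the trimethyl mark of transcribed genes, responded by 0.01 ± 0.16 in KYSE150 and -1.19 ± 0.16 in KYSE410. Without that replicate its KYSE150 value was -0.25 and passed (adjusted p = 0.0036). NSD2 rose in KYSE150 and fell in KYSE410, with responses of 0.33 and -0.80, and the remodeller CHD1 fell in both, with -0.60 and -1.76.

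Among genes called in one line alone, a strict form was set apart. It asked for a change of at least 1 in that line, with the 95% interval of the other line's response within ± 0.5. The interval rests on the variance that both lines share at a gene, not on the other line's own scatter. The strict form held for 106 genes that rose and 108 that fell in KYSE150, and for 125 that rose and 202 that fell in KYSE410. The other line expressed 59, 54, 80 and 156 of these at a mean of at least 1 FPKM, and the rest were low there. A missing call alone does not show that a line did not respond. Lists hold such low members too. Without members under 1 FPKM on average in both groups of a line, differences were negative at 17 and positive at 1 of 22 cholesterol genes, positive at 11 and negative at 4 of 19 antioxidant genes, positive at 16 and negative at 10 of 39 integrated stress response genes and positive at 2 and negative at 3 of 7 interleukin and chemokine genes.

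In KYSE150 alone, with expression in both lines, the strongest rises again included genes of division. CDCA3, a trigger of mitotic entry, was at 7.04, 6.67 and 5.59 FPKM in KYSE150 normoxia, 36.1, 44.6 and 40.4 in KYSE150 hypoxia, 10.4, 12.8 and 7.54 in KYSE410 normoxia and 11.2, 12 and 8.78 in KYSE410 hypoxia. KYSE410 libraries of both oxygen levels overlapped, and the KYSE410 response was 0.07 with a 95% interval of -0.28 to 0.42. The nucleolar remodeller subunit BAZ2A rose by 1.18 ± 0.14, the scaffold IQGAP3 by 1.17 ± 0.12, KIAA1671 by 1.11 ± 0.18 and VASN, a membrane protein that binds TGF-beta, by 1.02 ± 0.09. Only 3 genes met the rule for falls in KYSE150 alone: LARP6, which binds collagen mRNAs, responded by -1.49 ± 0.15, the zinc finger gene ZNF226 by -1.22 ± 0.16 and the interferon-induced IFI6 by -1.06 ± 0.17.

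Of genes low in KYSE410, TXNIP had one of the largest differences. TXNIP (chr1:145992435-145996600), a thioredoxin-binding arrestin induced by glucose, was at 3.08, 3.30 and 3.91 FPKM in KYSE150 normoxia, 89.4, 90.4 and 93.4 in KYSE150 hypoxia, 0, 0.0193 and 0 in KYSE410 normoxia and 0.0146, 0 and 0.0151 in KYSE410 hypoxia. In KYSE410 it was at or near 0 in all 6 libraries, which leaves no response to measure. PCK1, the gluconeogenic kinase, was at 0.237, 0.265 and 0.0943 FPKM in KYSE150 normoxia, 31.0, 36.3 and 30.8 in KYSE150 hypoxia and at most 0.0125 in KYSE410. The chemokine receptor CXCR4 was at 4.27, 4.40 and 3.71 and 48.8, 54.5 and 49.5 in the 2 KYSE150 groups and at a mean of 0.0105 and 0.0163 in those of KYSE410. ARRDC4, an arrestin like TXNIP, rose from 1.12, 0.834 and 0.915 to 2.68, 3 and 3.07 FPKM in KYSE150 and fell from 22.3, 23.6 and 32.4 to 3.77, 3.88 and 4.01 in KYSE410, a difference of -3.46 ± 0.16 (adjusted p = 1.85e-08). Of the 8 arrestin and glucose-sensor genes tested, 6 differences were negative, and MLX, partner of the glucose-sensing factors, fell in KYSE410 alone, with a response of -0.47 ± 0.07.

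In KYSE410 alone, with expression in both lines, TGFBI, a matrix protein induced by TGF-beta, was at 14.7, 16.2 and 14.3 FPKM in KYSE150 normoxia, 16.9, 17.6 and 15.9 in KYSE150 hypoxia, 0.405, 0.392 and 1.10 in KYSE410 normoxia and 6.85, 6.76 and 7.41 in KYSE410 hypoxia. It rose in KYSE410 from a low level and stayed below the KYSE150 level in hypoxia. H1-2, a linker histone, was at 109.9, 135 and 104 FPKM in KYSE150 normoxia, 114, 123 and 110.5 in KYSE150 hypoxia, 64.1, 74.3 and 63.2 in KYSE410 normoxia and 298, 301 and 299 in KYSE410 hypoxia, and its KYSE150 groups overlapped. The long noncoding RNA DANCR rose by 1.78 ± 0.06, CITED2, which limits HIF by competing for its coactivator, by 1.43 ± 0.08, the mitochondrial phenylalanine tRNA gene TRNF by 1.45 ± 0.12 and the polymerase subunit POLE4 by 1.42 ± 0.17. The rankings did not pass over tRNA genes. TRNF had no known length or position, so neither the length and GC trend nor overlap with other genes was checked for it. The same holds for the histone gene H2AC19 below. How well poly(A) libraries measure a tRNA, or histone mRNAs such as those of H1-2 and H2AC19, was not tested. Without KYSE150 normoxia replicate 2, POLE4 also rose in KYSE150, by 0.29 (adjusted p = 0.0069). Without replicate 1 of that group, DANCR fell there, at -0.17 (adjusted p = 0.0324).

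The strongest falls in KYSE410 alone were those of LINC02693, the forkhead repressor FOXK2, the PHD finger gene PHF23, the helicase-like antiviral gene ZNFX1, the RNA-binding gene IGF2BP2 and the transcription factor GTF2IRD1. LINC02693 was at 6.44, 4.85 and 7.37 FPKM in KYSE150 normoxia, 6.43, 6.82 and 6.07 in KYSE150 hypoxia, 7.76, 8.11 and 8.40 in KYSE410 normoxia and 0.691, 0.668 and 0.745 in KYSE410 hypoxia. The KYSE410 hypoxia libraries lay below all others. FOXK2 responded by -1.93 ± 0.07, PHF23 by -1.88 ± 0.06, ZNFX1 by -1.83 ± 0.17 and GTF2IRD1 by -1.78 ± 0.08. Once the trend with length and GC was removed, FOXK2 and GTF2IRD1 also fell in KYSE150, at -0.18 and -0.19. IGF2BP2 responded by -1.81 ± 0.09, and without KYSE150 normoxia replicate 2 it fell in KYSE150 too, at -0.31 (adjusted p = 0.0020).

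**Figure D4:**
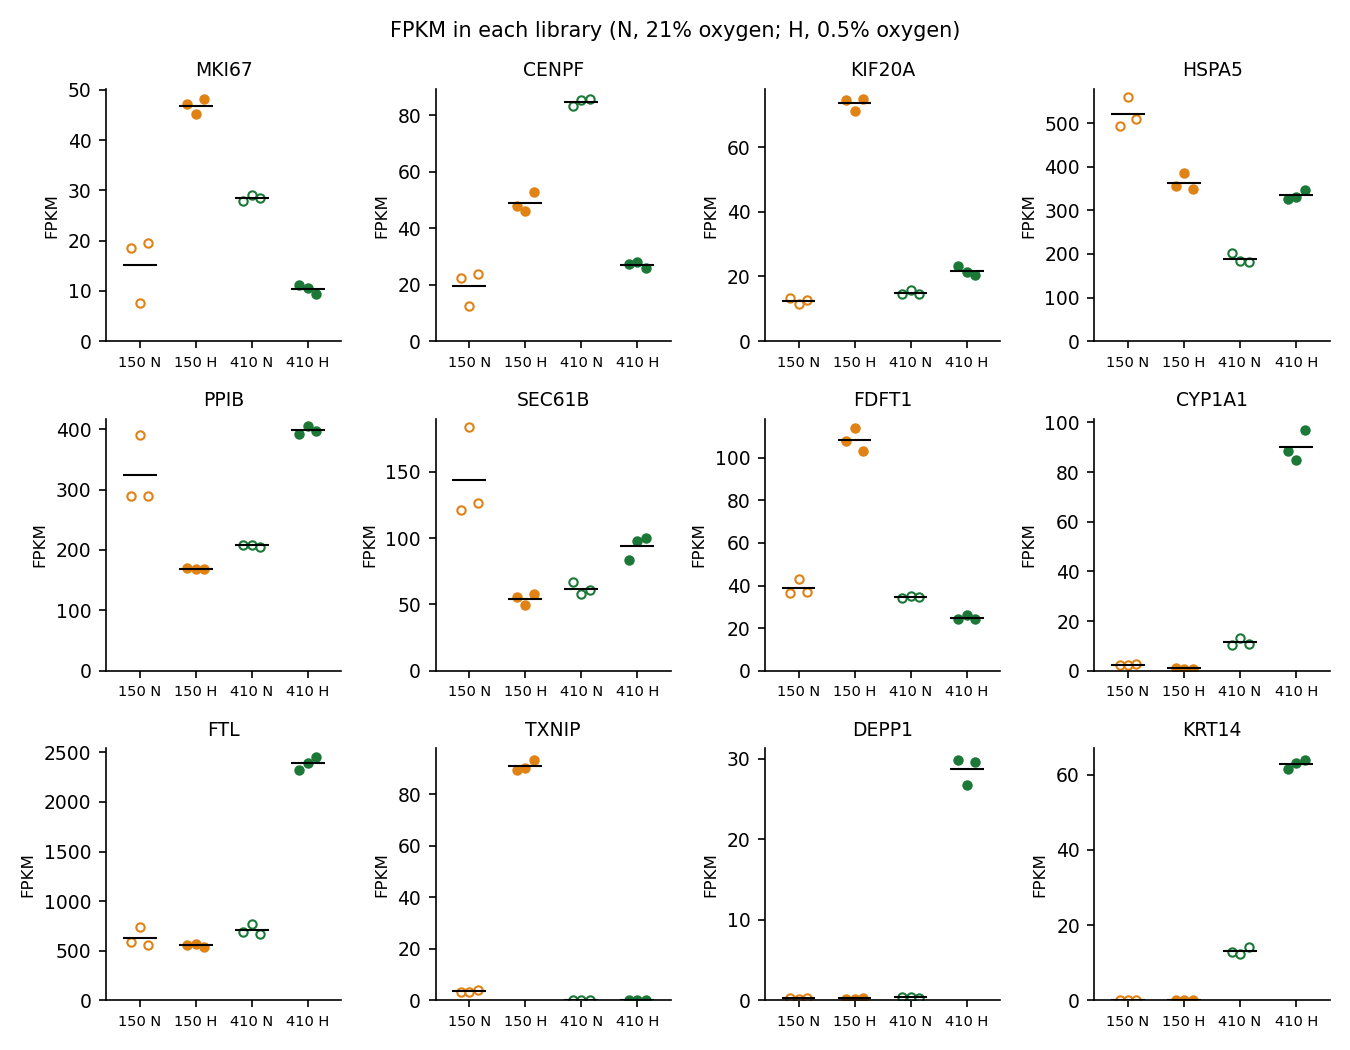
FPKM of 12 genes in each of the 12 libraries (open circles, 21% oxygen; filled circles, 0.5% oxygen; orange, KYSE150; green, KYSE410), with a black bar for each group mean and the y axis starting at 0. MKI67 and CENPF cross over between the lines, PPIB crosses over the other way, HSPA5 draws together in hypoxia, TXNIP is at or near 0 in KYSE410, and DEPP1 and KRT14 rise in KYSE410 from or beside KYSE150 levels near 0.

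Squamous genes rose in KYSE410, and many of them were hardly expressed in KYSE150. Of 19 tested, 14 rose and 3 fell in KYSE410, beside 27.4% and 47.1% of all genes. There were 7 that rose and 2 that fell in KYSE150, beside 26.1% and 42.4% of all genes. In KYSE150, 9 of the 19 (COL17A1, DSC3, DSG3, KRT14, KRT15, KRT5, KRT6A, S100A9 and TP63) were under 1 FPKM on average at both oxygen levels, so that their differences repeat the KYSE410 response. Among the other 10, 6 differences were positive and none negative, with a median of 0.34. The sum over all 19, low members included, went from 0.22%, 0.217% and 0.222% of FPKM in KYSE410 normoxia to 0.580%, 0.575% and 0.571% in hypoxia. In KYSE150 it went from 0.146%, 0.144% and 0.146% to 0.260%, 0.264% and 0.253%. S100A2 (chr1:153561108-153567890), a calcium-binding protein of basal epithelium, was at 4.78, 10.6 and 5.67 FPKM in KYSE150 normoxia, 5.84, 6.93 and 5.23 in KYSE150 hypoxia, 44.9, 41.9 and 47.1 in KYSE410 normoxia and 369.8, 387 and 383 in KYSE410 hypoxia. The KYSE150 groups overlapped, and the difference was 3.20 ± 0.27 (adjusted p = 1.61e-06). KRT17, a keratin of stressed epithelium, rose in both lines, from 197, 250.3 and 192 to 431, 443 and 406 FPKM in KYSE150 and from 66.3, 70.1 and 71.7 to 535, 537 and 545 in KYSE410. The basal keratin KRT14 and the stress keratin KRT6A rose in KYSE410, by 2.18 and 1.64, and were at most 0.126 FPKM in any KYSE150 library. IL1A, an alarm cytokine of epithelium that KYSE150 hardly expressed, fell in KYSE410 from 176, 131 and 190.5 to 14.4, 15.3 and 13.9 FPKM. Without KYSE150 normoxia replicate 1, the small KYSE150 value of IL1A passed too (-0.32, adjusted p = 0.0469). Carbonic anhydrase CA2, also low in KYSE150, rose in KYSE410 from 4.40, 5.39 and 5.04 to 28.4, 29.2 and 34.7 FPKM.

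Of 19 EGF family and feedback genes, 10 differences were negative and 3 positive, beside 36.0% and 27.3% of all genes. The counts were 9 and 6 under median-of-ratios scaling, 12 and 2 under common-sum scaling, 10 and 6 under quantile scaling and 9 and 5 with the length and GC trend removed. ERRFI1, a feedback inhibitor of the EGF receptor, responded by 1.16 ± 0.12 in KYSE150 and -0.99 ± 0.12 in KYSE410, and the receptor ERBB3 by 0.79 ± 0.10 in KYSE150 and -0.81 ± 0.10 in KYSE410. The ligand NRG1 fell in both lines, in KYSE410 from 133, 137 and 130.1 to 27.4, 27.6 and 27.5 FPKM. HBEGF, named for its size after its values were seen, fell in KYSE410 from 23.9, 22.6 and 27.4 to 1.46, 1.56 and 1.99 FPKM, with a difference of -3.52 ± 0.15, but its class did not hold under all 3 scalings. Of 19 AP-1 and immediate early genes, 6 differences were positive and 9 negative. IER3 rose more in KYSE410 (1.85 and 3.28) and FOS more in KYSE150 (1.83 and 0.68). JUN rose in KYSE410, by 0.78, and its KYSE150 value of -0.15 did not pass. That value passed without KYSE150 hypoxia replicate 2 (-0.25, adjusted p = 0.0083) and with the length and GC trend removed (-0.22, adjusted p = 0.0245). Of 11 interleukin and chemokine genes, 4 differences were positive and 4 negative. LIF responded by 0.92 ± 0.08 in KYSE150 and -1.02 ± 0.08 in KYSE410, IL6 fell in both (-1.82 and -2.81), and NFKBIA, the NF-kappa-B inhibitor, rose in both (0.62 and 1.49).

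Antioxidant genes under NRF2 fell in KYSE150 and split in KYSE410. Of 22, 17 fell and 2 rose in KYSE150, beside 42.4% and 26.1% of all genes. In KYSE410, 9 fell and 8 rose, beside 47.1% and 27.4% of all genes. Differences were positive at 14 and negative at 4, or at 10 and 7 under common-sum scaling. PRDX1, a peroxidase, was at 484, 640.5 and 483 FPKM in KYSE150 normoxia, 399.6, 419 and 402 in KYSE150 hypoxia, 135, 135 and 138 in KYSE410 normoxia and 350.3, 351 and 356 in KYSE410 hypoxia. The lines differed widely in normoxia and were near each other in hypoxia, with a difference of 1.75 ± 0.13 (adjusted p = 4.80e-07). AKR1C2, a steroid and carbonyl reductase, fell in KYSE150, with a response of -1.88 ± 0.07, and was near 0 in KYSE410. AKR1C3 responded by -0.54 and 0.76, from a mean of 0.0458 to 0.789 FPKM in KYSE410, and reads may be shared among the closely similar AKR1C genes. GCLC, the rate-limiting enzyme of glutathione synthesis, fell in both, with responses of -0.83 and -2.37. FTL, the ferritin light chain, named after its values were seen, was at 586, 742 and 554 FPKM in KYSE150 normoxia, 561, 569.7 and 533 in KYSE150 hypoxia, 688, 764 and 671 in KYSE410 normoxia and 2325, 2397 and 2449 in KYSE410 hypoxia, and its class did not hold under all 3 scalings.

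The integrated stress response fell in both lines. Of 43 target genes, 40 fell in KYSE150 and 38 in KYSE410, with medians of -1.95 and -1.56, and 20 differences were positive and 10 negative, or 17 and 15 under common-sum scaling. ASNS, asparagine synthetase, went from 235, 262 and 244 to 13.1, 12.5 and 14.0 FPKM in KYSE150 and from 207, 207 and 214 to 51.5, 54 and 61.7 in KYSE410, a difference of 2.24 ± 0.10. PSPH, of serine synthesis, fell with responses of -3.37 and -0.74. NUPR1, a stress-induced nuclear protein, and CBS, of transsulfuration, fell in KYSE150, with responses of -2.94 and -2.58, and were at most 0.195 FPKM on average in either KYSE410 group. Among 29 heat shock proteins and cochaperones, 20 differences were positive and 2 negative, beside 27.3% and 36.0% of all genes, with a median of 0.41. Under common-sum scaling 14 were positive and 6 negative, with a median of 0.15, and under quantile scaling 12 and 8, with a median of 0.12. With the length and GC trend removed, 15 were positive and 2 negative, with a median of 0.28. The inducible Hsp70 genes HSPA1A and HSPA1B, near-identical copies whose reads can be split between them, rose by 1.79 and 3.42 and 1.85 and 3.46, and the Hsp90 genes HSP90AA1 and HSP90AB1 by 0.77 and 1.79 and 0.82 and 1.81.

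Short, abundant transcripts of translation and respiration had positive differences almost throughout. Of all genes, 27.3% had a positive and 36.0% a negative difference. Of 78 cytosolic ribosomal protein genes, 77 differences were positive and none negative, with a median of 0.69, and 0.46 with the length and GC trend removed. Under quantile scaling the median was 0.19, with 35 positive and 1 negative. Ribosomal protein genes have many processed pseudogenes that may share reads. RPS25, RPL31 and RPL29 rose in both lines, by 0.39 and 1.17, 0.50 and 1.27 and 0.42 and 1.14. RPS27 rose by 0.34 and 1.25, and with the trend removed its difference was 0.34 and did not pass (adjusted p = 0.0602). Without KYSE150 normoxia replicate 1 or replicate 3 the KYSE150 rise of RPS27 did not pass either, at 0.29 (adjusted p = 0.0501) and 0.26 (adjusted p = 0.0528). Of 72 nuclear genes of the respiratory chain, 57 differences were positive and 1 negative, with a median of 0.63, and 0.32 with the trend removed, where 38 were positive and 2 negative. ATP5F1A, the F1 alpha subunit of ATP synthase, was at 66.7, 143 and 126 FPKM in KYSE150 normoxia, 57.6, 45.5 and 116 in KYSE150 hypoxia, 57.6, 56.6 and 46.7 in KYSE410 normoxia and 144, 138 and 147 in KYSE410 hypoxia, and its KYSE150 libraries spread widely. Its KYSE150 value of -0.65 did not pass, but passed without KYSE150 hypoxia replicate 3 (-1.04, adjusted p = 0.0040) and without KYSE150 normoxia replicate 1 (-0.99, adjusted p = 0.01). COX6B1, a cytochrome oxidase subunit, rose in both lines (0.58 and 1.43), ATP5MC3 in KYSE410 alone (-0.14 and 0.90) and ATP5F1D fell in KYSE150 alone (-0.74 and 0.12). Of 13 mitochondrially encoded mRNAs, 11 fell in KYSE150 and 12 in KYSE410, and ATP6 fell further in KYSE410, with a response of -1.98 against -1.28.

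DNA replication genes, unlike those of mitosis, had positive differences. Of 42, 34 were positive and 2 negative, beside 27.3% and 36.0% of all genes, with a median of 0.61. In KYSE410, 29 rose and 6 fell, beside 27.4% and 47.1% of all genes. In KYSE150, 13 rose and 16 fell, beside 26.1% and 42.4%. RFC4, of the clamp loader, was at 103, 128 and 100.3 FPKM in KYSE150 normoxia, 58.7, 58.6 and 61.3 in KYSE150 hypoxia, 32.6, 32.1 and 31.0 in KYSE410 normoxia and 48.8, 51.3 and 52.7 in KYSE410 hypoxia. It fell in KYSE150 and rose in KYSE410, and the difference was 1.53 ± 0.11 (adjusted p = 4.53e-07). Its partner RFC5 responded by -0.17 and 0.81, with only the KYSE410 rise called. ORC1, of the origin recognition complex, and MCM4, of the replicative helicase, rose in both lines, by 0.93 and 2.02 and 0.40 and 1.39. A match to the cell cycle homology region was in 2 of 36 promoters of this list (5.56%).

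For the remaining lists no side was clear. Of 31 proteasome genes, 3 differences were positive and 2 negative, but the side depended on scaling, with 10 positive and none negative under median-of-ratios scaling, 2 and 10 under common-sum scaling and 2 and 15 under quantile scaling. Of 20 p53 targets, 8 differences were positive and 9 negative, and of 18 interferon-stimulated genes 4 and 7. Among p53 targets, the nuclease AEN and the ubiquitin ligase MDM2 fell further in KYSE410 (-0.76 and -2.34 and -0.39 and -1.63), GADD45A, a growth arrest gene, fell further in KYSE150 (-2.84 and -1.4), and the repair gene XPC fell in KYSE410 alone (-0.10 and -1.04). Of the non-epithelial markers, 3 were tested, and CD68 rose in both lines, by 0.77 and 1.38. Among genes that moved the same way in both lines but to different extents, the histone gene H2AC19, which has a near-identical copy that may share its reads, rose by 1.21 and 3.45, and PHLDA1, OSBP2 and MICAL2 fell further in KYSE410, with responses of -0.90 and -2.92, -0.61 and -2.61 and -1.27 and -3.18. PHLDA1 is a growth factor-induced gene, OSBP2 binds oxysterols and MICAL2 oxidises actin.

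**Figure D5:**
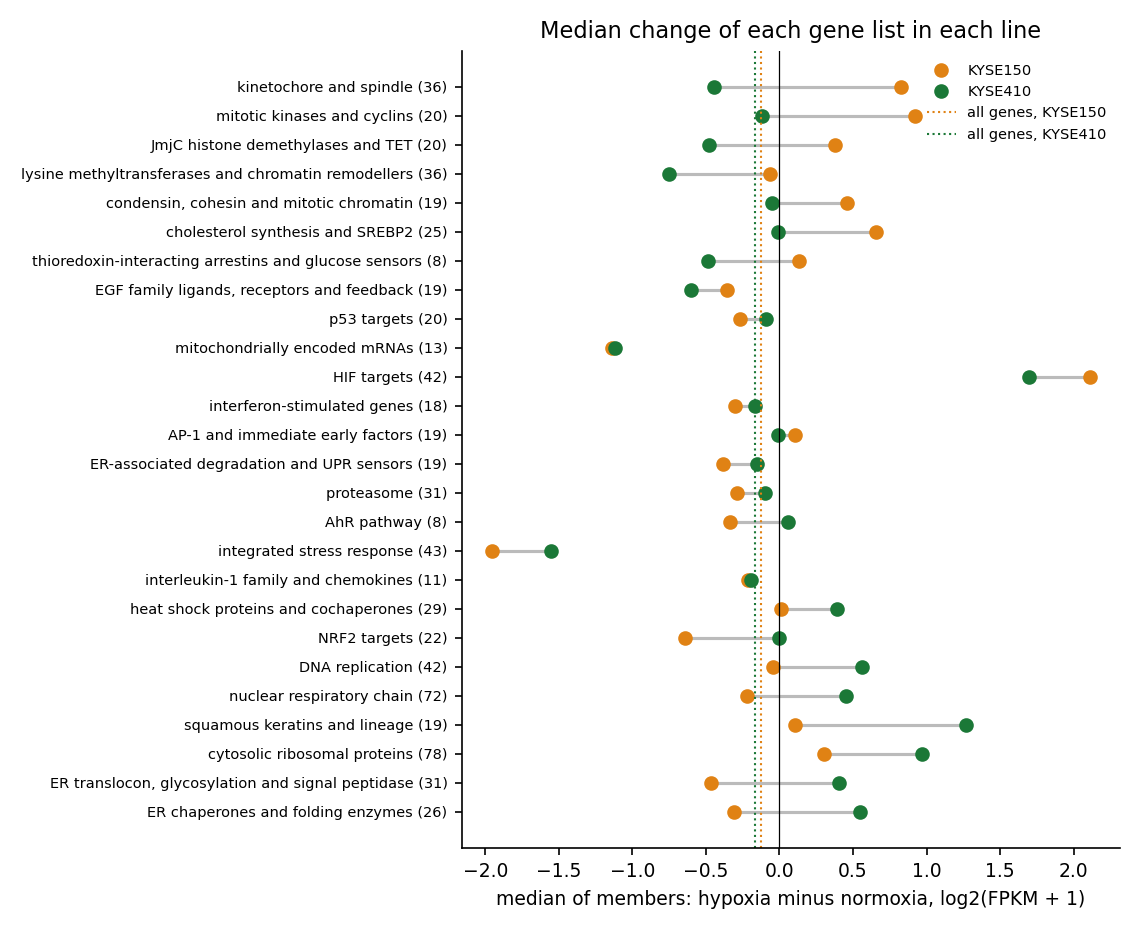
Median response of the members of each list tested in at least 8 genes (number in brackets) in KYSE150 (orange) and KYSE410 (green), hypoxia minus normoxia in log2(FPKM + 1), with dotted lines at the medians of all genes, -0.12 and -0.17. Kinetochore and spindle genes, at 0.83 and -0.45, and ER chaperones, at -0.31 and 0.54, lie on opposite sides of 0 in the 2 lines.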

How the data were processed

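The 12 libraries were made from total RNA with mRNA capture beads and a VAHTS kit, per the labels' protocols. Reads were handled with bcl2fastq 2.20, fastp 0.22.0 and HISAT2 2.2.1 on build hg38, per the submitters' processing notes. Which program made the values, from which annotation and with which strand setting, is not stated in the labels or files at hand. Each line has its own table, deposited by the authors, and its values were read as FPKM: multiplied by transcript length they summed to between 0.919 and 1.02 of the total that FPKM implies. The lowest were KYSE410 normoxia, at 0.919, 0.931 and 0.925, against 1.002, 1.002 and 1.02 in KYSE410 hypoxia. KYSE150 was at 0.964, 1.009 and 0.967 in normoxia and 1.01, 1.006 and 1.007 in hypoxia. Whether this bears on the trend with transcript length in KYSE410 was not tested. Because FPKM is relative to each library's own total, a change in a few abundant genes shifts all others.

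Of 30703 and 30106 symbols, 26115 were in both tables, and the 12653 with a mean of at least 1 FPKM were tested with limma 3.58.1 (R 4.3.3) on log2(FPKM + 1). One model held a mean for each of the 4 groups and 3 contrasts, with a trend of variance on level and Benjamini-Hochberg adjustment. Count models were not used, since the values are not counts. A class needed an adjusted p below 0.05 for the difference and, in each line counted as responding, for that line. On simulated data for the difference in response (12653 genes, 200 changed), 40% of changes of 0.5 and 85% of changes of 1 were recovered, and 3.8% of calls were false. The simulation changed a far smaller share of genes than was called in the data. It also gave all libraries the same scatter at a gene, so these rates may not hold for the calls reported here. Group labels share replicate numbers, but nothing says that equal numbers mark a shared culture or day.

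Genes named by rank kept their class under 3 other scalings, had a mean of at least 5 FPKM, and had groups that did not overlap in each line called. They were the 10 opposite genes of each kind with the largest smaller change, up to 6 of each kind called in one line alone and expressed in both, 4 per line that were low in the other, 5 of each sign among genes that moved the same way, up to 4 per gene list, and NDRG1, CA9 and LDHA, named whatever their class. Other genes, such as VEGFA, HBEGF and FTL, were named after their values were seen. MicroRNAs, small nucleolar RNAs and genes overlapping another gene in exons on their strand were passed over in these rankings, and 1 gene of the cholesterol list is not reported singly here. Members and lists were chosen with earlier results of these data known, so no list is independent evidence. Alternatives covered scaling, pseudocount, filters, thresholds, length and GC content (known for 96.2% of genes), library weights, the replicate block and each library left out. Promoters came from RefSeq tables on GRCh38.p14, and the CCAAT box was added to the motif search after the other motifs had been counted.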

Additional observations from a re-analysis of the deposited data

Results flagged for a closer look

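At 20 ranked genes the 2 lines responded in opposite directions, each response was called, and the test of the difference itself passed (limma, adjusted p at most 1.58e-05). Normoxia and hypoxia libraries did not overlap in either line at any of the 20. The rule that chose these genes asked for this and for the calls, so neither is a result about them. Of all 12653 genes, 7203 (56.9%) had no such overlap in either line. The 10 genes that rose in KYSE150 and fell in KYSE410 had differences in response, on the log2(FPKM + 1) scale, of -3.06 for GAB2, -3.04 for MKI67, -2.78 for PPP2R5B, -2.95 for CENPF, -2.59 for SLC6A6, -2.48 for KPNA2, -2.57 for ASPM, -2.82 for CKAP2L, -2.23 for KLF10 and -2.61 for CDCA2. The 10 genes that fell in KYSE150 and rose in KYSE410 had differences of 1.89 for IFI27L2, 1.86 for PPIB, 2.56 for HSPB8, 2.24 for MAP3K2-DT, 3.71 for CYP1A1, 2.30 for CRELD2, 2.24 for LCN2, 1.73 for OCIAD2, 1.71 for UGDH and 1.66 for CSTA. MKI67, CENPF, ASPM, CKAP2L and CDCA2 in the first set act in mitosis, and PPIB and CRELD2 in the second act in the ER. All 20 kept their class without KYSE150 normoxia replicate 2 and with the length and GC trend removed. Groups of 3 libraries were too small for a test of single outlying libraries.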

How the results depend on the processing

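Of 200 recounts of the 8 numbers of genes, 182 stayed within 1.5 times the value reported. With a mean of at least 5 FPKM, 2981 differences were negative, 410 genes rose and 531 fell in KYSE150 alone and 760 fell in KYSE410 alone. With no filter on low values, 1362 genes fell in KYSE150 alone and 1505 rose in KYSE410 alone. With common-sum scaling, 371 genes fell in KYSE150 and rose in KYSE410, and 547 rose in KYSE410 alone. At an adjusted p below 0.01, 466 genes rose in KYSE150 and fell in KYSE410, and 389 did the reverse. With a difference of at least 1 asked for, 700 were positive and 1017 negative, the opposite classes held 365 and 275 genes, 124 rose and 124 fell in KYSE150 alone, and 183 rose and 271 fell in KYSE410 alone. These shifts follow from which genes are tested or asked for, except under common-sum scaling, where the cause was not tested. Leaving out each library in turn gave 3168 to 3767 positive and 4203 to 4909 negative differences, and the highest of each came without KYSE150 normoxia replicate 2.

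Of the 132 named genes, the difference changed direction at IL6 with a pseudocount of 0.1 (0.574, adjusted p = 0.0592), and it no longer passed at RPS27 with the length and GC trend removed or at LDHA under quantile scaling (0.192). List medians changed sign for AP-1 genes under median-of-ratios scaling (0.020), for proteasome genes with the length and GC trend removed (-0.055) and under common-sum (-0.136) and quantile (-0.163) scaling, and for p53 targets averaging 5 FPKM or more (0.044). The median of ER-associated degradation genes changed sign with the trend removed (0.161), under median-of-ratios (0.071) and quantile (0.151) scaling, with array weights (0.079), averaging 5 FPKM or more (0.314) and without KYSE150 normoxia replicate 2 (0.092), KYSE150 hypoxia replicate 1 (0.028) or KYSE410 hypoxia replicate 3 (0.034). Signs also changed for interleukin-1 genes with the trend removed (-0.008), averaging 5 FPKM or more (-0.218) and with a pseudocount of 5 (-0.183), and for interferon-stimulated genes averaging 5 FPKM or more (0.207) and under median-of-ratios (0.036) and quantile (0.037) scaling. The cause of these changes was not tested.

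Libraries with equal replicate numbers showed no sign of pairing: their deviations from the group means correlated between -0.158 and 0.088 over 18 pairs. With 3 libraries in each group, this cannot show that no culture or day was shared. With the replicate block, 3360 differences were positive and 4495 negative. DESeq2 and edgeR were not run, since the files hold no counts. Depth is unknown, so no limit from read numbers can be given for genes listed at or near 0, such as TXNIP in KYSE410.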

Other observations

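Some genes were listed in the table of one line alone and so entered no comparison: 4588 symbols of the KYSE150 table and 3991 of the KYSE410 table, of which 297 and 77 had a mean of at least 1 FPKM. Neither table had a row at 0 in every library, and whether an unlisted symbol stands for 0 was not tested. Within KYSE150, 14 of the 297 rose and 23 fell by at least 1 on the log2(FPKM + 1) scale with groups that did not overlap. EPS8L3, of a family that links growth factor receptors to actin, went from 8.65, 9.84 and 9.88 to 53.6, 49.0 and 49.7 FPKM, and STBD1, which tethers glycogen to membranes, from 0.876, 1.99 and 2.47 to 11.3, 9.79 and 10.5 FPKM. The long noncoding RNA CASC19 went from 32.3, 18.9 and 28.3 to 4.56, 5.93 and 6.19 FPKM and AGT, the angiotensin precursor, from 9.34, 9.75 and 9.41 to 2.26, 2.40 and 2.07 FPKM. Within KYSE410, 8 of the 77 rose and 15 fell by the same measure. SERPINB7, an epidermal protease inhibitor, went from 3.10, 3.31 and 3.01 to 21.8, 22.2 and 24.8 FPKM, whereas BNC1, a zinc finger factor of basal keratinocytes, went from 22.0, 23.4 and 25.4 to 7.46, 6.98 and 6.27 FPKM and CBLC, an epithelial ubiquitin ligase, from 23.1, 20.0 and 19.6 to 6.43, 6.77 and 6.57 FPKM. These genes were named by the size of their change after their values were seen, among those averaging 5 FPKM or more, and no test was made on them.

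Across the 12175 genes with a known transcript length, Spearman's rho of length with the response was 0.057 in KYSE150 and -0.264 in KYSE410, and -0.347 with the difference in response. Genes of one library are not independent replicates, so these are descriptions without a test. From the shortest transcripts, of at most 1000 nt, to those over 6000 nt, the median difference went through 0.48, 0.23, -0.05, -0.25 and -0.43.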
